A study of Mus musculus with 12 samples.

Results

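The 53 mitosis and cytokinesis genes described here drive entry into mitosis, the attachment and separation of chromosomes and the division of the cell body. They were picked by gene name, with earlier results of these data known, from a table of 78275 gene IDs, and all 53 were present and abundant enough to be tested. The cells were C2C12 myoblasts, an established mouse muscle precursor line that is labelled wild type. They had received either a non-targeting control siRNA or one directed at Zfp143, which encodes ZNF143, a transcription factor with zinc fingers. The 12 libraries, from polyadenylated RNA, make up 4 groups of 3. The induced knockdown and induced control groups were moved 24 hours after transfection from growth medium with 10% fetal bovine serum to medium with 1% horse serum, and were harvested on day 5. The uninduced knockdown and uninduced control groups were harvested 24 hours after transfection in growth medium, so induced and uninduced cells also differ in serum and in time since transfection. All 12 libraries carry the same batch label and come from 1 cell line. Whether the 3 libraries of each group derive from 3 cultures is not recorded, and the spread behind the p-values may be technical.

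Mitosis begins when cyclin B binds CDK1 and the kinase pair is switched on by the phosphatase CDC25C. Kinetochores then capture spindle microtubules, and the spindle checkpoint holds the anaphase-promoting complex, a ubiquitin ligase, until every chromosome is attached. Once released, the complex marks securin and cyclin B for destruction, sister chromatids part, and a contractile ring splits the cell. Myoblasts in growth medium divide, whereas on loss of serum they leave the cell cycle and fuse into myotubes, whose nuclei do not divide, and some cells of the line stay single. Many mitosis genes share a promoter element called the CHR (cell cycle genes homology region, letters TTTGAA), which LIN54 binds. LIN54 belongs to the MuvB core, which acts with the pocket proteins p107 and p130 and E2F4 as the repressor DREAM in resting cells, and with B-MYB and FOXM1 as an activator in dividing cells. CCAAT boxes, bound by the trimer NF-Y, commonly lie upstream of the CHR in such promoters.

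Promoters of 6 of the genes with a CHR are shown because the element is what many of these genes share in sequence. They were read from RefSeq promoters of build GRCm38.p6, 5′ to 3′ on the strand of the gene, from base -120 to base 20, where base 1 is the start of transcription. Capitals mark the CHR (TTTGAA, or TTCAAA where it lies on the other strand) and the CCAAT box (CCAAT, or ATTGG on the other strand). The Cdk1 promoter lies at chr10:69352893-69353032 (minus strand) and that of Mki67 at chr7:135716360-135716499 (minus strand). The Ube2c window is chr2:164769809-164769948 (plus strand), and the Top2a window is chr11:99024170-99024309 (minus strand). Racgap1 is shown at chr15:99651637-99651776 (minus strand) and Ccnb2 at chr9:70421535-70421674 (minus strand).
Cdk1: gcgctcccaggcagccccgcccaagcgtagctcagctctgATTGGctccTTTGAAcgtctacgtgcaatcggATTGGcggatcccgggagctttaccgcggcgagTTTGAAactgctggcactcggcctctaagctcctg
Mki67: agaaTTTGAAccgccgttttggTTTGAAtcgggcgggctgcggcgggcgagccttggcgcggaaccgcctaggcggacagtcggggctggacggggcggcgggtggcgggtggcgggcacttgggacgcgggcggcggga
Ube2c: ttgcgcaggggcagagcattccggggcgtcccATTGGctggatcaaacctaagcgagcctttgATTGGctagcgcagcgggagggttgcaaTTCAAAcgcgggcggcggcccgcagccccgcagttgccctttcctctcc
Top2a: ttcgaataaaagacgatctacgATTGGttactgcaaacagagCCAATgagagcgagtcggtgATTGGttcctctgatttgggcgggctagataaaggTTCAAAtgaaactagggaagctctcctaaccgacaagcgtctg
Racgap1: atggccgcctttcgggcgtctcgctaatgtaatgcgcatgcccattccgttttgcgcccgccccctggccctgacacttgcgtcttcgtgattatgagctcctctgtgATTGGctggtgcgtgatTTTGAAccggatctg
Ccnb2: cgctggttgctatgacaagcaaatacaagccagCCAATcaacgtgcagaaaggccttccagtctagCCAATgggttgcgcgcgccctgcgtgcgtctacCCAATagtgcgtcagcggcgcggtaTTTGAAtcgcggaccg
In 5 of the 6 windows every CCAAT box lies upstream of a CHR near the start of transcription: at base -15 in Cdk1, -29 in Ube2c, -23 in Top2a, 6 in Racgap1 and 5 in Ccnb2. Cdk1 has a further CHR at -71, and Mki67 has its pair farther upstream, at -116 and -98.

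The promoter table held 47 promoters of 44 of the 53 genes. Aurkb, Ccna2, Cdc25c, Dlgap5, Incenp, Kif20a, Smc4, Spc24 and Tpx2 had no entry. A CHR on either strand, anywhere from base -250 to base 50, was present in 33 of the 47 promoters (70.2%), against 17.9% of all 32851 promoters in the table. Of the 42 CHR matches, 28 began between bases -50 and 30, and 25 of the 47 promoters (53.2%) held one wholly in that window, against 4.06% of all promoters. A CCAAT box on either strand was present in 36 of 47 (76.6%), against 37.4% of all promoters, and both elements in 29 (61.7%), against 6.95%. Only 1 CHR match shared bases with a CCAAT match. The core of the ZNF143 binding site (the SBS motif, 11 letters of which 1 may be any base) was found in 0 of the 47 promoters on either strand, against 1.02% of all promoters. By class, a CHR was present in all 7 kinesin genes with a promoter in the table, in 4 of 5 entry genes, in 6 of 10 kinetochore genes and in 3 of 6 anaphase genes. Neither element was found in the windows of Pttg1, Mad2l1, Nuf2, Birc5, Nusap1, Ncaph and Cit. These matches are descriptions of letters in a window, not of bound sites.

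**Figure D1:**
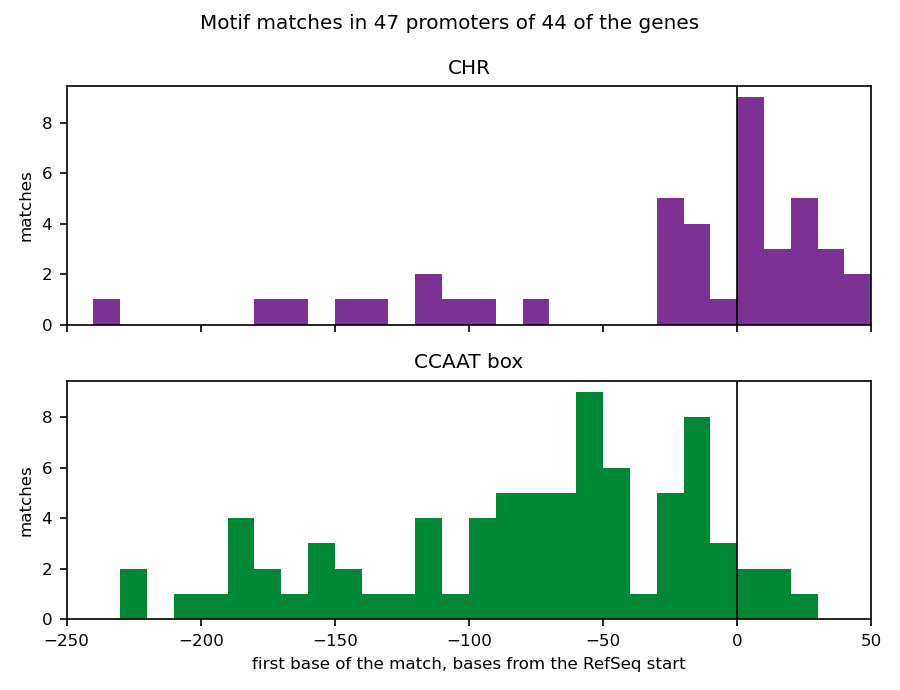
Positions of CHR matches (TTTGAA, top) and CCAAT matches (bottom) on either strand in 47 RefSeq promoters of 44 of the genes. The horizontal axis gives the first base of each match in bases from the RefSeq start (vertical line) and the vertical axis the number of matches in bins of 10 bases; 28 of the 42 CHR matches begin between bases -50 and 30.

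The total estimated count was 13520906 to 18271985 in the induced knockdown libraries, 18155408 to 18482805 in the induced control, 18060819 to 18890018 in the uninduced knockdown and 18556802 to 19068323 in the uninduced control libraries. Each of the 53 genes had between 61 and 7559 counts in every library. In uninduced cells the target was lower, with Zfp143 at 12.2, 11.9 and 10.1 CPM (counts scaled to library size, with TMM factors between libraries) in the knockdown libraries, against 23.2, 27.8 and 39.8 CPM in the control libraries (log2 fold change -1.41, SE 0.185; edgeR adjusted p = 6.12e-05). In induced cells Zfp143 stood at 14.7, 16.8 and 19.7 CPM with the Zfp143 siRNA and at 19.7, 19.3 and 19.2 CPM with the control siRNA, and the groups overlapped (log2 fold change -0.18, SE 0.181; edgeR adjusted p = 0.646). By an exact permutation test (two-sided, on log2 CPM) the uninduced p was 0.1, which is as small as 3 libraries a group can give, and the induced p was 0.3. For induced cells the 95% confidence interval of the log2 fold change was -0.57 to 0.20, so the comparison there is between cells that had and had not received the siRNA before induction, and a lower target level at harvest was not detected. Within its own group, induced knockdown replicate 1 and uninduced control replicate 3 each deviated most from the other libraries over the 53 genes, with an SD of the log2 deviations of 0.31 in the induced and 0.50 in the uninduced one. Uninduced control replicate 1 came between them at 0.35. Mitochondrial genes took 1.95% of counts in that induced knockdown library and 6.02% in uninduced control replicate 3. Without uninduced control replicate 3 the log2 fold change of Zfp143 in uninduced cells was -1.16. Some results that rest on replicate 1 of the induced knockdown or replicate 3 of the uninduced control are given with and without them. The others are given with all libraries only.

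The 53 genes together took 0.352%, 0.411% and 0.395% of all counts in the induced knockdown libraries, against 0.145%, 0.154% and 0.157% in the induced control libraries. In uninduced cells their share was 0.177%, 0.194% and 0.169% in the knockdown libraries, against 0.213%, 0.250% and 0.248% in the control libraries. The order of the groups was thus induced knockdown, uninduced control, uninduced knockdown and induced control, with no overlap between any of them. For 42 of the 53 genes the highest mean CPM was that of the induced knockdown cells. For the other 11 it was that of the uninduced control cells. These counts were not made over all tested genes, and they change when levels are scaled for transcript length, as given below. The lowest mean was that of the induced control cells for 38 genes, of the uninduced knockdown cells for 13 and of the uninduced control cells for 2, Aurkb and Spc24. In bulk RNA, fewer dividing cells and less of these transcripts per dividing cell cannot be told apart.

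**Figure D2:**
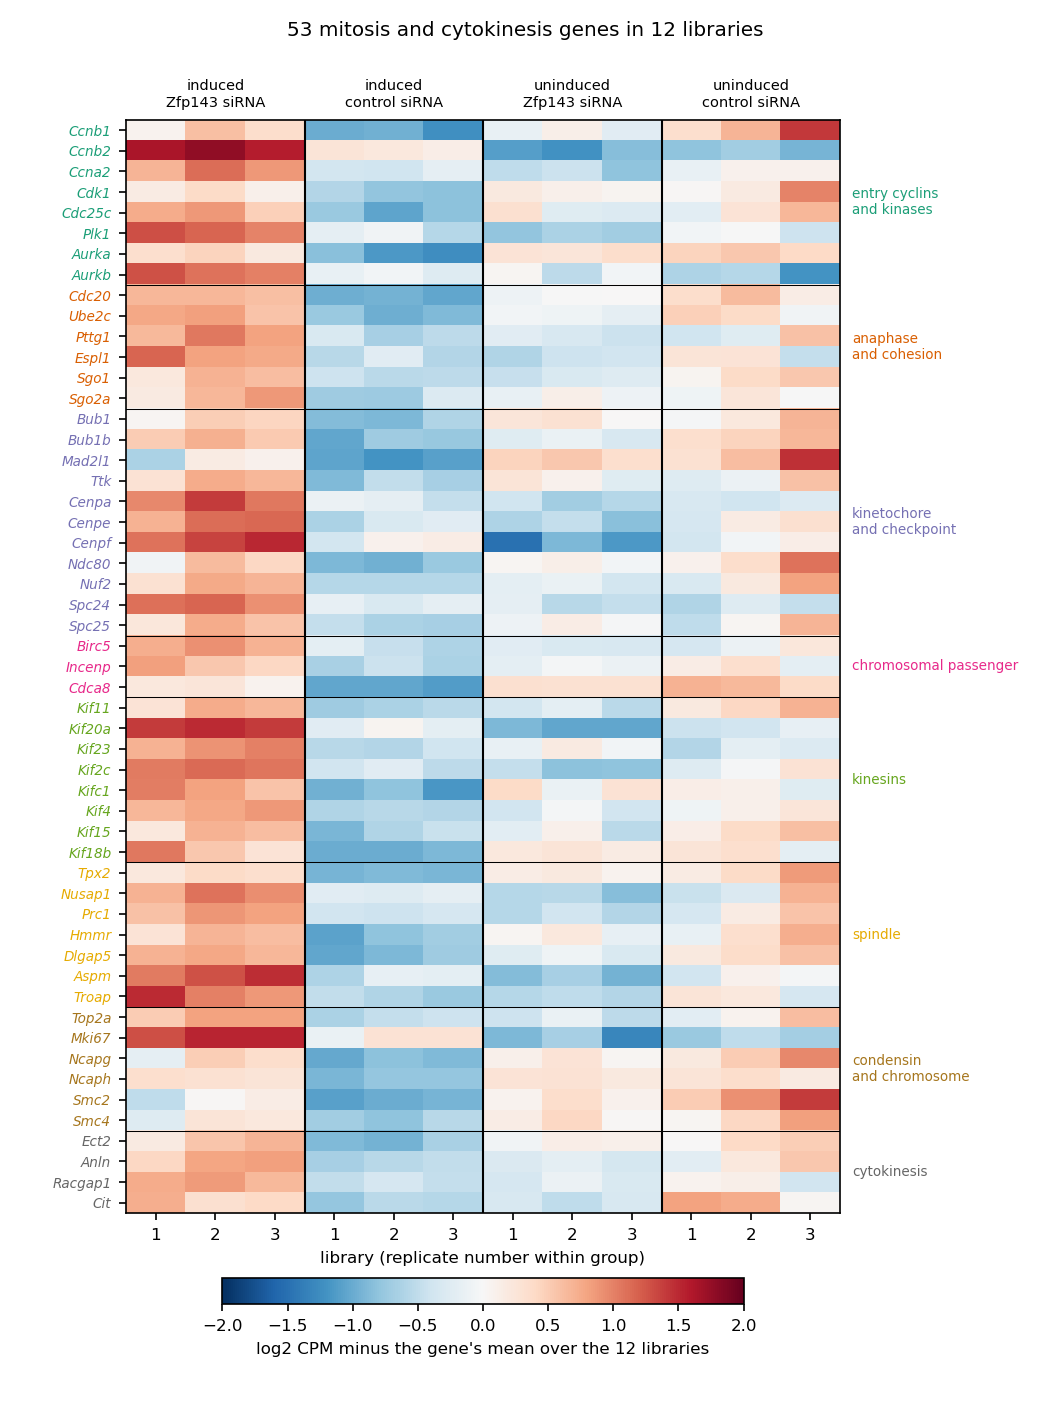
Level of each of the 53 genes (rows, grouped and coloured by class) in each of the 12 libraries (columns, by group and replicate), as log2 CPM minus the gene's mean over the 12 libraries. The induced knockdown columns are mostly red and the induced control columns mostly blue: the induced knockdown mean is the highest of the 4 for 42 genes, and the induced control mean the lowest for 38.

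Knockdown in induced cells asks whether cells that had received the Zfp143 siRNA differed from control cells after 5 days in differentiation medium. All 53 genes were higher in the knockdown cells at an edgeR adjusted p under 0.05 and none was lower. Over all 15030 genes tested, 3.73% were called higher and 5.77% lower. The median log2 fold change of the 53 genes was 1.28, a 2.43-fold difference, against -0.03 for all genes tested. Single values ran from 0.78 for Smc4 to 1.77 for Kifc1, and 50 genes differed by more than 2-fold. In each of the 53 genes all 3 knockdown libraries lay above all 3 control libraries, a pattern seen in 12.3% of all tested genes. Adjusted p-values by edgeR's quasi-likelihood test ran from 1.71e-06 to 0.0155. Class medians ran from 1.14 for the condensin and chromosome genes to 1.42 for the kinesins.

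Among the genes of mitotic entry, Ccnb1, which encodes cyclin B1, stood at 59.4, 85.7 and 72.3 CPM in the induced knockdown libraries, against 28.6, 29.0 and 24.1 CPM in the induced control libraries. Each knockdown library had at least as much as the sum of 2 control libraries, and the log2 fold change was 1.41 (SE 0.226). Cdk1, the catalytic partner of cyclin B, had 107, 124 and 102 CPM in the knockdown libraries, against 63.1, 54.97 and 54.1 CPM in the control libraries. Its log2 fold change of 0.96 (SE 0.197) was the smallest of the 8 entry genes. Ccnb2, the gene of cyclin B2, was at 47.1, 52.4 and 45.4 CPM with the Zfp143 siRNA and at 18.3, 17.5 and 16.7 CPM with the control siRNA (log2 fold change 1.46, SE 0.131). Aurka, whose kinase matures the spindle poles, had 31.6, 34.4 and 28.7 CPM in the knockdown libraries and 14.05, 11.4 and 10.6 CPM in the control libraries. Aurkb, the kinase of the chromosomal passenger complex, had 38.5, 33.8 and 31.8 CPM in knockdown libraries and 14.4, 15.2 and 13.3 CPM in control libraries. Log2 fold changes were 1.39 (SE 0.134) for Aurka and 1.28 (SE 0.177) for Aurkb. Plk1, a kinase of centrosome and kinetochore function, Cdc25c, which activates CDK1, and Ccna2, the gene of cyclin A2, differed by 1.40, 1.57 and 1.21 on the log2 scale.

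The anaphase genes covered the switch that ends metaphase. Cdc20, which activates the anaphase-promoting complex, had 63.0, 62.4 and 60.2 CPM in the induced knockdown libraries, against 20.1, 20.6 and 19.2 CPM in the induced control libraries. Replicates of both groups lay close together, and the log2 fold change of 1.63 (SE 0.130) had the smallest adjusted p of the 53 genes together with Kif20a (edgeR adjusted p = 1.71e-06 each). Ube2c, the ubiquitin-conjugating enzyme that serves the complex, was at 71.3, 73.8 and 61.9 CPM in knockdown cells and at 25.1, 21.2 and 22.7 CPM in control cells (log2 fold change 1.58, SE 0.146). Pttg1, which encodes securin, and Espl1, which encodes the separase that cuts cohesin, differed by 1.33 and 1.36 on the log2 scale. The shugoshin genes Sgo1 and Sgo2a, whose proteins protect cohesin at the centromere, differed by 1.02 and 1.16. The table also lists Sgo2b, a copy of Sgo2a, at 0 counts in every library.

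In the kinetochore and checkpoint class all 11 log2 fold changes lay between 1.03 and 1.41. Bub1b, the gene of the checkpoint protein BUBR1, had 61.8, 70.7 and 61.9 CPM in the induced knockdown libraries, against 21.1, 26.5 and 25.6 CPM in the induced control libraries (log2 fold change 1.41, SE 0.132). Cenpf, a large protein of the outer kinetochore, was at 94.3, 114 and 127 CPM in the knockdown libraries and at 34.6, 47.3 and 49.5 CPM in the control libraries (1.35, SE 0.184). Mad2l1, which encodes the checkpoint protein MAD2, stood at 29.2, 50.6 and 47.9 CPM in the knockdown libraries, against 21.8, 19.7 and 21.2 CPM in the control libraries. Its first knockdown library was low relative to the other 2 and still above all control libraries (log2 fold change 1.03, SE 0.252; edgeR adjusted p = 0.0155). This was the least firm call of the 53, lost when induced knockdown replicate 2 (adjusted p = 0.0756), induced knockdown replicate 3 (0.06) or any 1 of the 3 induced control libraries (0.0535 to 0.0772) was left out. The 4 subunits of the NDC80 complex, the microtubule coupler of the kinetochore, gave 1.22 for Ndc80, 1.15 for Nuf2, 1.28 for Spc24 and 1.12 for Spc25. Cenpa, the centromeric histone, and Cenpe, a kinetochore motor, differed by 1.40 and 1.38, and the checkpoint kinases Bub1 and Ttk by 1.12 and 1.24.

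Partners of Aurora B in the chromosomal passenger complex rose as well. Birc5, the gene of survivin, was at 45.6, 52.2 and 44.9 CPM in the induced knockdown libraries, against 24.2, 20.1 and 17.99 CPM in the induced control libraries (log2 fold change 1.19, SE 0.155). Cdca8, the gene of borealin, had 27.2, 28.0 and 24.8 CPM in knockdown libraries and 11.5, 11.5 and 10.9 CPM in control libraries (1.24, SE 0.125). Incenp, which encodes the scaffold of the complex, differed by 1.16.

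Kinesins move along microtubules or take them apart. Kif20a, a motor of the central spindle, had 95.05, 102 and 95.4 CPM in the induced knockdown libraries, against 30.9, 37.6 and 31.5 CPM in the induced control libraries (log2 fold change 1.54, SE 0.121). Kif23, the motor subunit of centralspindlin, and Kif4, a chromosome-bound motor that works with PRC1, differed by 1.39 and 1.35. Kif11, which pushes the spindle poles apart, gave 1.20, Kif15, which can share that work, 1.17, and the microtubule depolymerase Kif2c 1.45. Kif18b, of the family that shortens microtubule ends, gave 1.61. The largest of all 53 values, 1.77 for Kifc1, belongs to a minus-end motor with a near-identical copy, Kifc5b. That copy was listed at 22.6 to 34.2 CPM in induced knockdown libraries and 8.603 to 9.28 CPM in induced control libraries, and how reads were divided between the 2 genes is not known, so the value of Kifc1 is uncertain.

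All 7 spindle genes rose. Tpx2, which activates Aurora A on microtubules, was at 108, 121 and 118 CPM in the induced knockdown libraries, against 48.7, 50.7 and 49.5 CPM in the induced control libraries (log2 fold change 1.22, SE 0.149). Dlgap5, a stabiliser of kinetochore fibres, had 52.7, 55.1 and 51.1 CPM in knockdown libraries and 15.7, 17.4 and 19.7 CPM in control libraries (1.59, SE 0.136). Aspm, of the spindle poles, and Troap, a microtubule-associated protein, differed by 1.59 and 1.76. Nusap1, Prc1, which bundles the central spindle, and Hmmr differed by 1.14, 1.14 and 1.38.

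The chromosome genes held the smallest of the 53 log2 fold changes. Top2a, whose topoisomerase untangles sister chromatids, stood at 303, 374 and 373 CPM in the induced knockdown libraries, against 137, 153 and 160 CPM in the induced control libraries (log2 fold change 1.22, SE 0.184). Mki67, the gene of the marker of cycling cells Ki-67, which coats mitotic chromosomes, had 220, 257 and 259 CPM in the knockdown libraries and 81.6, 110 and 110 CPM in the control libraries (1.29, SE 0.162). The condensin ATPase genes Smc4 and Smc2 gave these, 0.78 and 0.93, while the condensin I subunits Ncapg and Ncaph gave 1.16 and 1.12. For cytokinesis, Racgap1, the GTPase-activating subunit of centralspindlin, was at 148, 159 and 139 CPM in knockdown libraries and at 62.8, 70.4 and 63.8 CPM in control libraries (1.18, SE 0.138). Its partner Ect2, which activates RhoA at the division plane, Anln, the gene of the ring scaffold anillin, and Cit, the gene of citron kinase, differed by 1.31, 1.25 and 1.12.

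**Figure D3:**
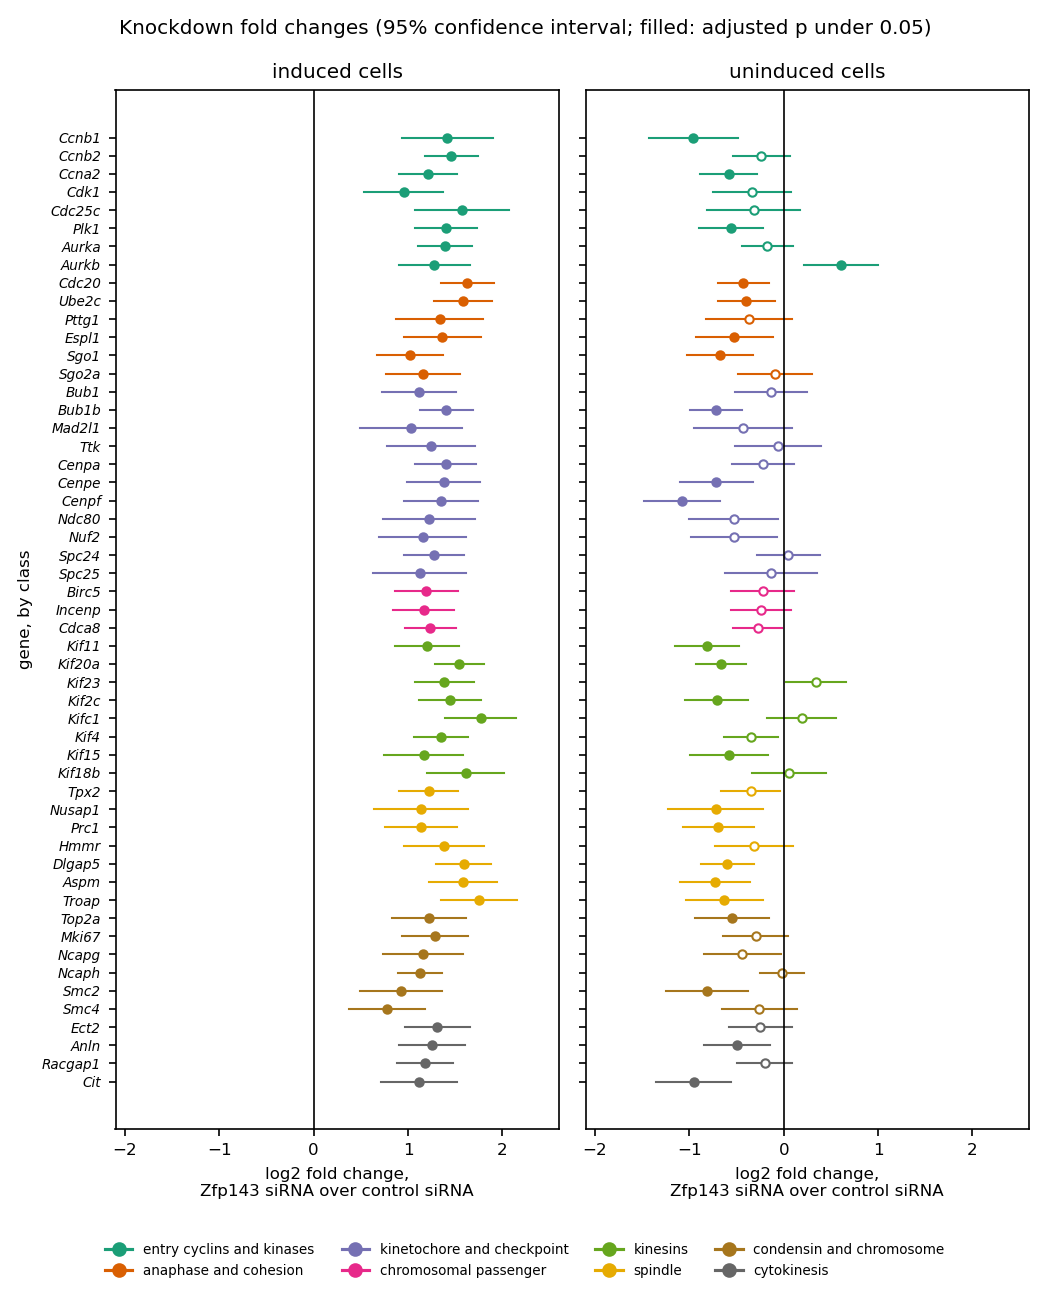
Log2 fold change of each of the 53 genes with the Zfp143 siRNA over the control siRNA, in induced cells (left) and uninduced cells (right), with 95% confidence intervals from the edgeR fit; filled points have an adjusted p under 0.05. All 53 points on the left lie above 0 and are filled, whereas on the right 23 filled points lie below 0 and 1, Aurkb, above.

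Knockdown in uninduced cells compares growing myoblasts 24 hours after transfection, when the Zfp143 transcript was reduced. Of the 53 genes 23 were lower in the knockdown cells, 1, Aurkb, was higher, and 29 were not called. Over all genes tested, 17.1% were called lower and 15.4% higher. The median log2 fold change of the 53 genes was -0.39, against -0.04 for all genes tested, and values ran from -1.08 for Cenpf to 0.61 for Aurkb. In 21 genes all 3 knockdown libraries lay below all 3 control libraries, which held for 22.8% of all tested genes, and in Aurkb and Kif23 they lay above, which held for 21% of all tested genes. By class, 5 of 7 spindle genes, 4 of 6 anaphase genes, 4 of 8 kinesins, 3 of 8 entry genes, 3 of 11 kinetochore genes, 2 of 6 chromosome genes and 2 of 4 cytokinesis genes were lower, and none of the 3 chromosomal passenger genes was called.

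Cenpf had 15.8, 24.0 and 20.2 CPM in the uninduced knockdown libraries, against 34.6, 43.0 and 49.1 CPM in the uninduced control libraries (log2 fold change -1.08, SE 0.189; edgeR adjusted p = 0.000611). It was the only one of the 53 genes lower by more than 2-fold. Ccnb1 was at 50.9, 61.2 and 48.1 CPM in knockdown libraries and at 71.6, 90.2 and 150.2 CPM in control libraries. Replicate 3 of the control was far above the others, and the log2 fold change of -0.96 (SE 0.221) became -0.59 without it. The call held in all 24 alternatives, by edgeR, DESeq2 or limma (adjusted p at most 0.0249). Kif20a was at 19.5, 17.6 and 17.6 CPM in knockdown libraries and at 26.7, 27.7 and 32.2 CPM in control libraries (-0.66, SE 0.124). Bub1b stood at 36.6, 39.4 and 34.8 CPM with the Zfp143 siRNA and at 54.4, 59.0 and 68.7 CPM with the control siRNA (-0.72, SE 0.130). For Cdc20 the values were 36.8, 39.3 and 39.8 CPM in knockdown cells and 50.6, 61.6 and 43.8 CPM in control cells (-0.43, SE 0.126), and for Dlgap5 they were 27.5, 30.5 and 26.2 CPM in knockdown cells and 37.0, 41.7 and 48.8 CPM in control cells (-0.60, SE 0.133). In all of these genes no knockdown library reached the level of a control library.

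Ube2c, at 40.2, 39.3 and 37.0 CPM in uninduced knockdown libraries and 58.4, 54.7 and 40.0 CPM in uninduced control libraries, was barely past the test (log2 fold change -0.39, SE 0.142; edgeR adjusted p = 0.0449). The call was lost in 14 of 24 alternatives, with adjusted p up to 0.17 without uninduced control replicate 1. Top2a had 161, 194 and 148 CPM in knockdown libraries and 185, 225 and 326 CPM in control libraries, so the groups overlapped (-0.55, SE 0.182). Without uninduced control replicate 3 its value was -0.28 and the call was lost (edgeR adjusted p = 0.131), and it was also lost without uninduced knockdown replicate 1 (0.0996) or 3 (0.128). Leaving out that control library likewise ended the calls of Nusap1, Kif15 and Anln and added calls of lower Incenp, Cdca8 and Racgap1, so that 22 genes were lower, 19 of them among the 23. The count was lowest, at 14, without uninduced knockdown replicate 1. Over all genes tested, 2829 were called lower without that control library and 1693 without uninduced knockdown replicate 1, against 2575 with all libraries.

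Aurkb was the only one of the 53 genes called higher, with 16.4, 11.1 and 15.4 CPM in the uninduced knockdown libraries, against 10.3, 10.7 and 6.96 CPM in the uninduced control libraries. All knockdown libraries were higher, though the second by little (log2 fold change 0.61, SE 0.184; edgeR adjusted p = 0.0197). The call was lost without uninduced knockdown replicate 1 (adjusted p = 0.0957) or 3 (0.0753). Not past the test were Cdk1, Mki67, Ccnb2, Aurka, Mad2l1, Tpx2, Birc5, Racgap1 and Cdca8. Cdk1 was at 109, 102 and 99.2 CPM in knockdown libraries and at 97.1, 107 and 188 CPM in control libraries, and its log2 fold change of -0.34 (95% confidence interval -0.75 to 0.08) became 0.02 without uninduced control replicate 3. Mki67 had 48.2, 56.5 and 36.4 CPM in knockdown libraries and 54.0, 63.3 and 56.1 CPM in control libraries (-0.30, interval -0.65 to 0.05). Mad2l1 had 61.6, 65.8 and 57.1 CPM in knockdown libraries and 55.9, 69.5 and 124 CPM in control libraries, with control replicate 3 again high (-0.43, interval -0.95 to 0.09). These intervals include both no difference and reductions of the size seen in genes that passed.

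Induction in control cells gives the change of the 53 genes over differentiation with the non-targeting siRNA. Of the 53 genes 40 were lower in induced cells, 3 were higher, Ccnb2, Aurkb and Mki67, and 10 were not called, against 30.9% lower and 33.2% higher over all genes tested. The median log2 fold change was -0.78, against 0.03 for all genes tested, and 23 genes were lower by more than 2-fold. In 35 genes all induced control libraries lay below all uninduced control libraries, which held for 32.4% of all tested genes, and in 3 they lay above, which held for 35.8%. Smc2 and Mad2l1 fell most, each by 1.99 on the log2 scale. The uninduced control libraries of Mad2l1 were at 55.9, 69.5 and 124 CPM, so its value leans on replicate 3. Cdca8 averaged 11.3 ± 0.337 CPM in induced control cells and 35.4 ± 4.17 CPM in uninduced control cells (SD, n = 3 each; log2 fold change -1.65, SE 0.126). Aurka averaged 12.03 ± 1.79 CPM in induced control cells and 34.7 ± 1.60 CPM in uninduced control cells (-1.53, SE 0.134), and Cdc20 19.97 ± 0.694 CPM in induced control cells and 52.0 ± 8.96 CPM in uninduced control cells (-1.38, SE 0.129). The cyclin B genes moved in opposite directions. Ccnb1 was at 27.2 ± 2.72 CPM in induced control cells and 104 ± 41.0 CPM in uninduced control cells (-1.93, SE 0.228), and Ccnb2 at 17.5 ± 0.793 CPM in induced control cells and 8.72 ± 0.713 CPM in uninduced control cells (1.01, SE 0.137). Without uninduced control replicate 3 the Ccnb1 value was -1.58. Mki67 averaged 101 ± 16.4 CPM in induced control cells and 57.8 ± 4.88 CPM in uninduced control cells (0.80, SE 0.162). When only library size was scaled for, the all-gene median shifted to 0.21 and that of the 53 genes to -0.58, with 33 lower and 4 higher. Over all genes tested, 3652 were lower and 5715 higher in that fit.

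Induction in knockdown cells gave the opposite balance. Of the 53 genes 40 were higher in induced cells, none was lower and 13 were not called, against 36% higher and 30.1% lower over all genes tested. The median log2 fold change was 0.87, against 0.10 for all genes tested, and 20 genes were higher by more than 2-fold. In 42 genes all induced knockdown libraries lay above all uninduced knockdown libraries, which held for 38.5% of all tested genes, and in Mad2l1 and Cdca8 they lay below, which held for 33.7%. These counts are in CPM. In TPM (scaled for transcript length and depth) the Mad2l1 libraries overlapped. They stood at 30.2, 40.2 and 41.9 in induced and 35.1, 37.9 and 33.9 in uninduced knockdown cells. Mean TPM of Cdk1 was 163.1 in induced and 103.9 in uninduced knockdown cells. Ccnb2 averaged 48.3 ± 3.64 CPM in induced knockdown cells and 7.39 ± 0.986 CPM in uninduced knockdown cells (SD, n = 3 each; log2 fold change 2.71, SE 0.140). Cenpf averaged 112 ± 16.3 CPM in induced knockdown cells and 19.98 ± 4.08 CPM in uninduced knockdown cells (2.48, SE 0.193), and Kif20a 97.3 ± 3.61 CPM in induced knockdown cells and 18.2 ± 1.05 CPM in uninduced knockdown cells (2.41, SE 0.126). Mki67 averaged 245 ± 21.6 CPM in induced knockdown cells and 47.02 ± 10.1 CPM in uninduced knockdown cells (2.38, SE 0.169). Ccnb1 averaged 72.5 ± 13.2 CPM in induced knockdown cells and 53.4 ± 6.88 CPM in uninduced knockdown cells, which did not pass the test (0.44, SE 0.220; edgeR adjusted p = 0.0888), and Cdk1 111 ± 11.6 CPM in induced and 104 ± 5.09 CPM in uninduced knockdown cells (0.10, SE 0.195). Mad2l1 had the lowest value, -0.53, at an adjusted p of 0.0707. Ccnb1 passed in 9 of 24 alternatives. When only library size was scaled for, the all-gene median shifted to 0.35 and that of the 53 genes to 1.12.

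The induction calls in control and in knockdown cells rest on different libraries. Of the 53 genes, 27 were lower with induction in control cells and higher with induction in knockdown cells. A further 13 were lower in control cells and not called in knockdown cells, among them Cdk1, Ccnb1, Aurka, Mad2l1, Tpx2 and the 4 condensin genes. Another 10 were not called in control cells and higher in knockdown cells, among them Plk1, Ccna2, Cenpa, Cenpf, Kif20a and Birc5. Ccnb2, Aurkb and Mki67 were higher in both. Over all genes tested, 30.9% were lower with induction in control cells and 36% higher with induction in knockdown cells. Shares of all genes with each pair of calls were not counted.

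**Figure D4:**
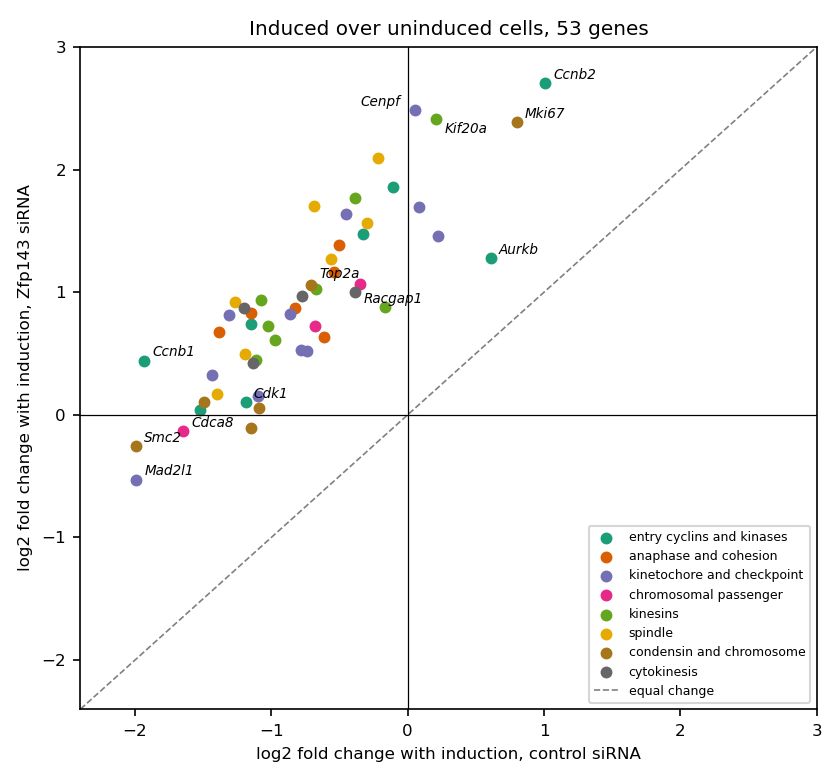
Log2 fold change of each of the 53 genes with induction in Zfp143 siRNA cells (vertical) against that in control siRNA cells (horizontal), both from the edgeR fit; points are genes coloured by class, and the dashed line marks equal change. All 53 points lie above the dashed line, most of them left of 0 and above 0, and Ccnb2, Mki67 and Aurkb lie to the right of 0 and above 0.

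The interaction of knockdown and induction tests whether the effect of the siRNA differed between induced and uninduced cells. It was higher for 52 of the 53 genes and lower for none, against 10.6% higher and 11.8% lower over all genes tested. The median difference was 1.70 on the log2 scale, against 0.02 for all genes tested. Cenpf had the largest, 2.43 (SE 0.264), followed by Troap with 2.38 (SE 0.268) and Ccnb1 with 2.38 (SE 0.316). Without uninduced control replicate 3 the Ccnb1 difference was 2.01. The smallest p was that of Kif20a (2.20, SE 0.173; edgeR adjusted p = 9.58e-07), and Dlgap5 (2.19, SE 0.190) and Bub1b (2.13, SE 0.185) came next. Aurkb was the gene not called (0.67, SE 0.254; edgeR adjusted p = 0.0722). Comparing the knockdown calls themselves, 23 genes were lower in uninduced and higher in induced cells, 29 were not called in uninduced and higher in induced cells, and Aurkb was higher in both. Over all genes tested, 17.1% were lower with knockdown in uninduced cells and 3.73% higher in induced cells. Shares of all genes with both calls were not counted.

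**Figure D5:**
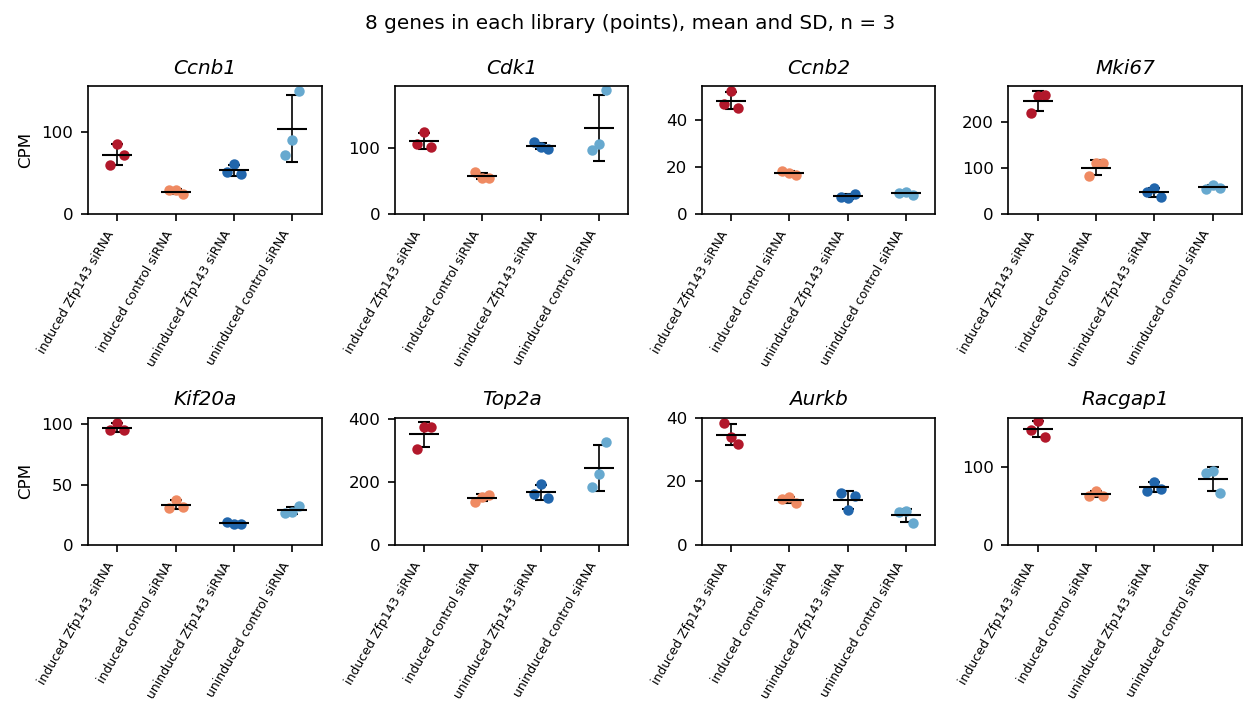
CPM of 8 of the genes in each of the 12 libraries (points), with the mean and SD of the 3 libraries of a group (black bars); the groups run from induced Zfp143 siRNA to uninduced control siRNA. In each gene all 3 induced Zfp143 siRNA points lie above the induced control siRNA points, while the uninduced control points of Ccnb1, Cdk1 and Top2a spread widely.

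Levels between genes were compared in TPM (transcript abundance scaled for transcript length and depth). Over the 12 libraries Cdk1 had the highest mean, 120.4 TPM, followed by Ube2c with 107 TPM, Pttg1 with 86.1 TPM and Top2a with 64.8 TPM. Cit, with 3.07 TPM, and Aspm, with 4.49 TPM, had the lowest. Over the 53 genes the log2 fold change of knockdown correlated with log2 mean TPM at a Pearson r of -0.184 in induced and 0.133 in uninduced cells, and with log2 transcript length at -0.0975 in induced and -0.386 in uninduced cells (descriptions over genes that share libraries). For the interaction the values were -0.215 with mean TPM and 0.282 with length. Of the genes with a promoter read, 31 had a CHR and 13 did not. Their median log2 fold changes with knockdown were 1.35 with and 1.15 without a CHR in induced cells, and -0.39 and -0.53 in uninduced cells. With induction they were -0.78 and -0.83 in control cells and 0.83 and 0.87 in knockdown cells. For the interaction they were 1.70 and 1.69. These differences were not tested.

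Induced knockdown and uninduced control cells differ in both treatments and were set side by side without a test. Shares over all tested genes were not counted for this pair. The mean CPM of the induced knockdown cells was above that of the uninduced control cells for 42 genes, by over 2-fold for 12. It was 48.3 CPM against 8.72 CPM for Ccnb2, 245 CPM against 57.8 CPM for Mki67 and 34.7 CPM against 9.33 CPM for Aurkb. For Ccnb1 it was 72.5 CPM against 104 CPM, for Mad2l1 42.6 CPM against 83.2 CPM and for Smc2 55.2 CPM against 116 CPM. The Ccnb1 libraries overlapped, at 59.45, 85.7 and 72.3 CPM in induced knockdown and 71.6, 90.2 and 150.2 CPM in uninduced control cells. By these CPM means the genes of the list did not all stand in the same relation to growing control myoblasts. In mean TPM, which also scales for transcript length, Cdk1 was higher in induced knockdown than in uninduced control cells (163.1 against 133.9). So were Ccnb1 (68.1 against 64.1) and Aurka (33.6 against 25.7), while Mad2l1 stayed lower (37.5 against 50.2). The count of 42 is for CPM only.

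Of a list of 94 other mitosis genes, 92 were tested. In induced cells 64 of the 92 were higher with knockdown and none lower, at a median log2 fold change of 0.97. Over all genes tested, 3.73% were called higher there and 5.77% lower. Pimreg, a regulator of the metaphase to anaphase step, was at 52.0, 51.6 and 47.9 CPM in induced knockdown libraries and at 16.8, 15.6 and 13.2 CPM in induced control libraries (1.73, SE 0.124). Nek2, a kinase that separates centrosomes, and Cdca2, which recruits a phosphatase to chromosomes, differed by 1.48 (SE 0.121) and 1.35 (SE 0.127). In uninduced cells 17 of the 92 were lower with knockdown and 8 higher, shares near or below the 17.1% lower and 15.4% higher over all genes tested. Lmnb1, the gene of lamin B1, was at 28.6, 29.8 and 29.0 CPM in uninduced knockdown libraries and at 59.1, 61.4 and 51.0 CPM in uninduced control libraries (-0.97, SE 0.114), Spag5, of the spindle, differed by -0.73 (SE 0.123), and Ccnf, the gene of cyclin F, by 0.79 (SE 0.143). With induction in control cells 63 of the 92 fell and 6 rose, against 30.9% lower and 33.2% higher over all genes tested. Rcc1, Psrc1 and Trip13 led there at -2.54, -2.69 and -3.02. With induction in knockdown cells 40 rose and 25 fell, against 36% higher and 30.1% lower over all genes tested. Those of smallest p there were Iqgap3 at 2.55, Rcc1 at -1.97 and Psrc1 at -1.89. The interaction was higher for 65 of 92 and lower for none, against 10.6% higher and 11.8% lower over all genes tested.

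Of 17 subunits and partners of the anaphase-promoting complex 2 were higher with knockdown in induced cells, Fbxo5, the gene of the inhibitor EMI1 (0.84, SE 0.135), and Ube2s, a ubiquitin-conjugating enzyme (0.50, SE 0.139), at a median of 0.11 over the 17. None was lower, against 3.73% higher and 5.77% lower over all genes tested. In uninduced cells Anapc1 and Cdc23 were lower with knockdown (-0.62 and -0.35) and Anapc11 higher (0.77). These shares of the 17 were below the 17.1% lower and 15.4% higher over all genes tested. With induction in control cells 8 of the 17 fell and 2 rose, against 30.9% lower and 33.2% higher over all genes tested. In knockdown cells 4 fell and 5 rose, shares below the 30.1% and 36% over all genes tested.

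Genes that control the transcription of mitosis genes were a list of 22, of which 4 were higher with knockdown in induced cells and none lower. Over all genes tested the shares were 3.73% higher and 5.77% lower. Foxm1 was at 70.7, 53.7 and 52.0 CPM in the induced knockdown libraries, against 23.8, 26.6 and 24.4 CPM in the induced control libraries (log2 fold change 1.23, SE 0.167; edgeR adjusted p = 0.000154). Mybl2, the gene of B-MYB, had 13.1, 10.5 and 8.41 CPM in knockdown libraries and 5.57, 5.27 and 4.77 CPM in control libraries (1.03, SE 0.187). E2f7, the gene of a repressor of E2F targets, and Rbl1, the gene of p107, differed by 1.02 (SE 0.161) and 0.55 (SE 0.156). Not past the test in induced cells were Rbl2, the gene of p130, E2f4 and Lin54, with log2 fold changes of -0.03, -0.14 and 0.21. In uninduced cells 3 of the 22 were lower with knockdown and 2 higher, shares below the 17.1% and 15.4% over all genes tested. Rbl1 had 18.6, 22.8 and 18.9 CPM in uninduced knockdown libraries and 33.8, 41.3 and 31.5 CPM in uninduced control libraries (-0.82, SE 0.156), and Nfya, a subunit of NF-Y, differed by -0.69 (SE 0.126) and E2f8 by 0.74 (SE 0.160). Foxm1, Mybl2, E2f4, Lin54 and Rbl2 were not called in that comparison, at -0.14, -0.21, -0.36, -0.06 and -0.23.

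With induction in control cells 13 of the 22 fell and 4 rose, against 30.9% lower and 33.2% higher over all genes tested. Nfya and Nfyb fell by 1.58 and 2.35 on the log2 scale, Mybl2 by 1.90, Lin54 by 1.09 and Rbl1 by 0.95. Rbl2 rose by 1.01 and E2f8 by 1.63, and Foxm1 was not called (0.07, SE 0.168). In knockdown cells Foxm1 rose by 1.45 with induction, at 58.8 ± 10.3 CPM in induced and 21.5 ± 0.617 CPM in uninduced knockdown cells (SD, n = 3 each), while Mybl2 fell by 0.66 and Lin54 by 0.82. The interaction was called for Foxm1 (1.38), Mybl2 (1.24) and Rbl1 (1.37), and not for E2f4 (0.22), Lin54 (0.27) and Rbl2 (0.20).

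Of 14 cell cycle inhibitors, D cyclins and their kinases, 13 were tested, and 8 of them rose and 3 fell with knockdown in uninduced cells, against 15.4% higher and 17.1% lower over all genes tested. Cdkn1a, the gene of the cyclin-dependent kinase inhibitor p21, was at 1066, 1067 and 1101 CPM in uninduced knockdown libraries, against 536, 448 and 415 CPM in uninduced control libraries (log2 fold change 1.21, SE 0.131; edgeR adjusted p = 1.06e-05). In induced cells it was at 284, 258 and 262 CPM with knockdown, against 358, 420 and 356 CPM in control cells, a lower level in every knockdown library (-0.49, SE 0.130; edgeR adjusted p = 0.0237). Ccnd1, the gene of cyclin D1, was higher with knockdown in both states, by 0.81 (SE 0.131) in induced and 1.12 (SE 0.130) in uninduced cells. Cdkn2c, the gene of the inhibitor p18, was also higher in both, by 1.08 (SE 0.144) in induced and 1.00 (SE 0.153) in uninduced cells, and Cdk6 was lower in uninduced cells by 1.10 (SE 0.147). The knockdown effect on Cdkn1a was opposite in sign to the median of the 53 mitosis genes in each state, and the interaction for Cdkn1a was -1.70 (SE 0.184).

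Markers of differentiation differed beside the mitosis genes. The 6 myotube markers were all lower with knockdown in induced cells, by 0.86 for Myog to 2.53 for Ckm on the log2 scale. Their summed level was 2250 to 2861 CPM in induced knockdown libraries and 6712 to 8395 CPM in induced control libraries, against 3.37 to 4.69 CPM in uninduced knockdown and 3.68 to 3.88 CPM in uninduced control libraries. Single myotube markers moved apart in uninduced cells. Myog was lower with knockdown (log2 fold change -0.86), and Mymk (3.03) and Acta1 (2.04), at no more than 1.13 CPM, were higher. The 5 myoblast markers summed to 891 to 1164 CPM in induced knockdown and 1307 to 1678 CPM in induced control libraries, and the 5 fibroblast markers to 879 to 1051 CPM in induced knockdown and 1372 to 1532 CPM in induced control libraries. In uninduced cells the myoblast markers summed to 379 to 445 CPM in knockdown and 352 to 399 CPM in control libraries, and the fibroblast markers to 95.1 to 104 CPM in knockdown and 61.7 to 71.9 CPM in control libraries. The myoblast sums were mostly Des, the only myoblast marker called in induced cells (-0.65). In uninduced cells Myf5 averaged 16.9 CPM with knockdown and 56.8 CPM in control cells (log2 fold change -1.75; edgeR adjusted p = 1.52e-06). The 6 macrophage markers summed to 2.33 to 3.85 CPM in induced knockdown and 3.58 to 4.06 CPM in induced control libraries, and to 9.15 to 10.4 CPM in uninduced knockdown and 1.87 to 3.15 CPM in uninduced control libraries, with Adgre1 at 0 throughout. Endothelial, adipocyte and epithelial markers summed to at most 9.004 CPM in any library, with Epcam and Lep at 0 throughout. The part of the share of myotubes in the values of the mitosis genes was not tested.

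The spread among replicates moved with the base composition of the transcripts. Over the 53 genes, the deviation of induced knockdown replicate 1 from the other libraries of its group correlated with GC content at r = 0.911, and that of uninduced control replicate 3 at r = -0.766 (descriptions over genes that share a library). Other libraries of these groups had correlations of similar size, at -0.709 and -0.819 for induced knockdown replicates 2 and 3 and 0.805 for uninduced control replicate 1, and deviations within a group depend on each other. The knockdown difference in induced cells correlated with GC content at r = 0.598 with all libraries and 0.162 without induced knockdown replicate 1, and in uninduced cells at 0.189 with all libraries and -0.208 without uninduced control replicate 3. With both libraries left out, all 53 genes were still higher with knockdown in induced cells, at a median log2 fold change of 1.33, and 25 were lower and 2 higher in uninduced cells, at a median of -0.29. Over all genes tested, that fit called 949 higher and 1576 lower in induced cells. In uninduced cells it called 3522 higher and 3613 lower, against 2311 and 2575 in the main fit. With an offset for GC content the medians were 1.29 in induced and -0.33 in uninduced cells.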

How the data were processed

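Polyadenylated RNA of 12 C2C12 libraries was sequenced with a kit that loses strand information, which leaves reads of antisense partners unseparated. Per the submitters' processing notes, reads were processed with fastp 1.0.1, STAR 2.7.11b and Salmon on GRCm39; which Salmon version and which annotation is not given in the sources used here. Deposited by the authors was an estimated count per gene and library, of which up to 7.26% are not whole. TPM was read from a deposited column per library (treated as a score), the deposited FPKM values were not used here, and the deposited length column served for length offsets. The table's columns for induced knockdown replicates 2 and 3 carry their label names with a pair of letters transposed.

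From 78810 lines, 535 repeats of a gene ID were dropped. Counts were rounded and 15030 genes kept by filterByExpr (minimum count 10, total 15). 1 edgeR 4.0.16 robust quasi-likelihood model with TMM scaling and a mean per group (R 4.3.3, 8 residual degrees of freedom) gave 5 comparisons; p-values were adjusted by Benjamini-Hochberg over all tested genes, and an adjusted p under 0.05 is a call. Levels are TMM-scaled CPM, as mean ± SD. The code was tested on simulated data. Alternatives used DESeq2 1.42.0, limma 3.58.1, other scaling, filters and offsets, a replicate term and libraries left out.

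The 53 genes, their classes and all other lists were chosen with earlier results of these data known. Values in every induced library are given for Ccnb1, Cdk1, Mki67, the member of highest mean TPM in each class and the 3 members of smallest p in each comparison and direction. For some of these genes every uninduced library is given too. Other genes are named by the 3 smallest p of their list, beside Zfp143, Cdkn1a, Foxm1, Mybl2, E2f4, Lin54, Rbl1 and Rbl2.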

Additional observations from a re-analysis of the deposited data

Results flagged for a closer look

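The effect of the Zfp143 siRNA differed between induced and uninduced cells for 52 of the 53 mitosis and cytokinesis genes, by the interaction term of the edgeR fit. Among the genes given in every induced library, the difference of log2 fold changes (induced minus uninduced) was 2.38 for Ccnb1, 1.29 for Cdk1, 1.58 for Mki67 and 1.70 for Ccnb2. Without uninduced control replicate 3 the difference was 2.01 for Ccnb1 and 0.93 for Cdk1. With all libraries the difference was 1.98 for Ube2c, 2.06 for Cdc20, 1.46 for Mad2l1, 2.13 for Bub1b and 2.43 for Cenpf. For Birc5, Cdca8 and Aurka it was 1.42, 1.51 and 1.56, and for Kif20a, Tpx2 and Dlgap5 it was 2.20, 1.57 and 2.19. Top2a and Racgap1 gave 1.77 and 1.38.

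Of the other genes named, the interaction was 1.22 for Zfp143 itself, 1.38 for Foxm1, 1.24 for Mybl2, 1.37 for Rbl1 and -1.70 for Cdkn1a. The difference for Zfp143 means that the states also differed in how far the target transcript was lowered at harvest. Its part in the other differences was not tested.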

How the results depend on the processing

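Across 24 alternatives, 51 to 53 of the 53 genes were higher with knockdown in induced cells, with 51 without induced knockdown replicate 2 or 3 or without induced control replicate 1 or 2, and none was lower. Over all genes, these fits called 337 to 991 higher and 564 to 1576 lower. The interaction was higher for 52 or 53 genes in its 23 alternatives, and for 1094 to 2769 of all genes. With induction, 33 to 42 genes were lower and 3 or 4 higher in control cells, and 36 to 45 were higher in knockdown cells. Over all genes, 3652 to 5006 were lower and 4663 to 5715 higher in control cells, and 4963 to 6597 higher in knockdown cells. In uninduced cells the knockdown lowered 14 to 29 genes, with 14 without uninduced knockdown replicate 1 and 27 without uninduced control replicate 1. Over all genes tested the counts lower in these 2 fits were 1693 and 2418, against 2575 in the main analysis. The 29 came with the GC offset within groups, where 3351 of all genes were lower. The count of the 53 genes higher with knockdown in uninduced cells, 1 in the main analysis, was 0 with only the libraries of the comparison, 2 without both libraries that stand apart, 2 with the GC offset and 2 with the GC offset within groups, and 0 to 1 with 1 library left out. The count lower with induction in knockdown cells, 0 in the main analysis, was 1 with no filter on low counts, with the DESeq2 Wald test, with only the libraries of the comparison, with a replicate block and without both libraries that stand apart, 2 with the GC offset within groups, and 0 to 1 with 1 library left out. The log2 fold change of Cdk1 with knockdown in uninduced cells, -0.34, was 0.02 both without uninduced control replicate 3 (0.0248) and without both libraries that stand apart (0.0159), and none of the 3 values passed the test; with 1 library left out it ran from -0.51 (-0.5105) to 0.02. Over 44 results of single genes and 1050 alternatives, 1007 kept direction and side of the threshold, 26 lost and 15 gained a call, and 2 changed direction. Some of these genes were named for the smallest p in these same data, so the tally does not describe the 53 genes as a whole. The cause of these changes was not tested. Whether replicate numbers pair the libraries could not be told from their correlations. Those of same-numbered libraries ran from -0.0963 to 0.306 and those of different numbers from -0.279 to 0.249, lower at both ends but largely overlapping. The best match was under the same number in 13 of 36 cases. With the replicate block, 24 genes were lower and 1 higher with knockdown in uninduced cells and 53 higher in induced cells. Over all genes, that fit called 2701 lower and 2414 higher in uninduced cells, and 579 higher and 922 lower in induced cells. The GC offsets were chosen after seeing the data.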
